A study of Homo sapiens with 24 samples.

Results

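Neighbouring fractions of a sucrose gradient were compared in cells labelled 293T that carried wild-type DIS3 (WT). Fraction 4 was set against fraction 3, and fraction 8 against fraction 7. The libraries were chosen by genotype and fraction as labelled, which gave 12 of the 24 libraries of the series, 3 in each of 4 groups, and none of the D146N libraries entered any value. 293T is a human embryonic kidney line. In all 4 groups DIS3 had been knocked down with the hairpin DIS3-sh2 and restored as the wild-type protein, so no group had untouched DIS3, and which promoter drove the rescue is not given in the labels. The RNA was labelled cytoplasmic and was depleted of ribosomal RNA before sequencing. Whether fraction numbers run from the top or the bottom of the gradient is not stated. The series asks where circular RNAs lie in the gradient; the gene table counts genes, and circular RNAs were not analysed here. The design text calls the 3 replicates biological, without saying whether they were separate cultures, so every p-value measures the spread between these libraries only.

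A sucrose gradient sorts RNA by the size and density of the particle that carries it. Free RNA and small ribonucleoproteins stay near the top, whereas ribosomal subunits, single ribosomes and polysomes travel further down. DIS3 is a catalytic subunit of the RNA exosome, the complex that degrades and trims RNA from its 3′ end, and it carries both an exonuclease and an endonuclease site. The small RNAs followed here belong to stable particles. 7SL is the RNA of the signal recognition particle, RPPH1 that of RNase P, RMRP that of RNase MRP, RN7SK holds the elongation factor P-TEFb inactive, and scaRNAs guide modification of spliceosomal RNAs in Cajal bodies.

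Library totals ran from 21.151 to 32.989 M counts over 61853 gene rows. Levels are given in CPM, the count of a gene scaled to the library total, and fold changes come from edgeR's quasi-likelihood test on rounded counts after TMM scaling, called at a Benjamini-Hochberg adjusted p under 0.05. Both are relative, so that fewer cells of a type and less RNA per cell, or less of one RNA and more of the others in a fraction, cannot be told apart. DIS3 itself (chromosome 13, 72752169 to 72781900 in GRCh38) stood at 96.0, 94.9 and 94.5 CPM in fraction 4, and at 91.5, 112.2 and 91.4 CPM in fraction 3. It stood at 6.28, 5.48 and 5.88 CPM in fraction 8, and at 4.54, 5.03 and 5.23 CPM in fraction 7. The row does not separate the rescue transcript from that of the cell. Of the 8 genes taken as a check of 293T, XRCC5, VIM, KRT8, KRT18 and MYC had 19.5 CPM or more in every library of fractions 4 and 3, whereas NEFM, NEFL and PAX2 reached at most 2.18 CPM there. Some liver-type mRNAs were present in the same libraries, with APOB at 374.5 CPM or more, ALB at 115.2 CPM or more and AFP at 95.3 CPM or more. These 3 come from a list of 13, of which 11 had enough counts to be tested in fraction 4 over 3. The whole list summed to 0.06536% to 0.06965% of the counts there, most of it from these 3, so the other members were low. The low level of NEFM, NEFL and PAX2 and the presence of APOB, ALB and AFP go against the label, whereas the other check genes and the other liver-type mRNAs do not. The cells are called here only as labelled. Markers of erythroid, leukocyte, fibroblast and epithelial cells each summed to at most 0.00138% of the counts.

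One library stood apart. Over the 1473 genes with 10 CPM or more in fractions 8 and 7, replicate 3 of fraction 8 differed from replicates 1 and 2 of the same fraction by a median of 0.44 on the log2 scale, and from the 3 libraries of fraction 7 by 0.42 to 0.44. The other pairs of libraries across fractions 8 and 7 differed by 0.06 to 0.07, median 0.06, and pairs within a fraction by 0.05 to 0.07, median 0.06. In fractions 4 and 3, over 7602 genes, the 9 pairs that joined libraries of the 2 fractions differed by 0.10 to 0.11, and the 6 pairs within a fraction by 0.10 to 0.11. A library of fraction 4 was thus as far from its own replicates as from a library of fraction 3. Squared count differences between 2 libraries were taken over rows with whole values in every WT library and at least 40 counts in the pair. That left 1786 to 2021 rows for fractions 4 and 3. For fractions 8 and 7 it left 662 to 702 rows in pairs with replicate 3 of fraction 8, and 453 to 520 otherwise. Medians of the squared differences were 3.66 to 4.95 times the sampling noise across fractions 4 and 3, and 3.87 to 4.58 times within either. They were 1.35 to 1.70 times across fractions 8 and 7 and 1.23 to 1.49 times within either, and 2.89 to 3.06 times in pairs with replicate 3 of fraction 8. No pair was thus treated as repeat deposits of 1 library, which says nothing on whether replicates came from separate cultures. Results on fraction 8 are given with and without replicate 3.

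**Figure D1:**
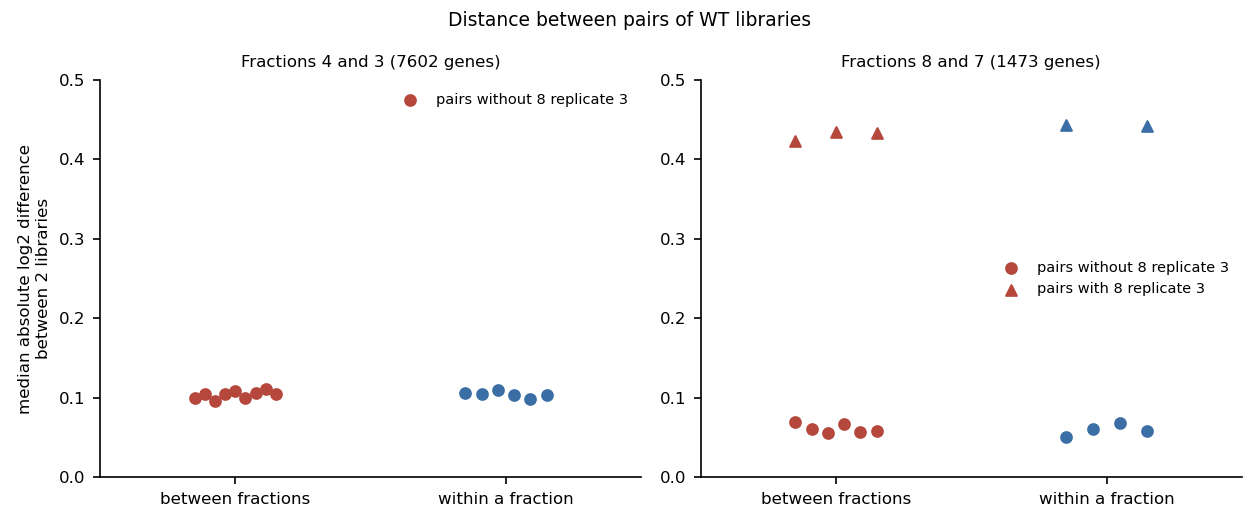
The vertical axis is the median absolute log2 difference in CPM between 2 WT libraries, with pairs across fractions in red on the left and pairs within a fraction in blue on the right of each panel. Circles of both colours lie near 0.10 for fractions 4 and 3 and near 0.06 for fractions 8 and 7, and the triangles, pairs with fraction 8 replicate 3, lie above 0.42.

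Fractions 4 and 3 held nearly the same RNA. Of 17045 genes tested, edgeR called 0 (0.0%), and 836 genes (4.9%) had an unadjusted p under 0.05, 391 higher and 445 lower in fraction 4. DESeq2 and limma voom also called 0, with 654 and 832 genes at an unadjusted p under 0.05. The libraries of the 2 fractions did not overlap for 1780 genes (10.4%). Log2 fold changes had a median of 0.00 and lay between -0.47 and 0.47 for the middle 90 percent of genes.

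The intervals show how small a difference these libraries leave room for. Of the 7602 genes with 10 CPM or more, 7457 (98.1%) had a 95% interval that stayed within 1.5-fold in both directions, and 7582 (99.7%) one within 2-fold. The median standard error (SE) of a log2 fold change among them was 0.10. Over all genes tested the share within 2-fold was 76.6%, because rows with few counts gave wide intervals.

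**Figure D2:**
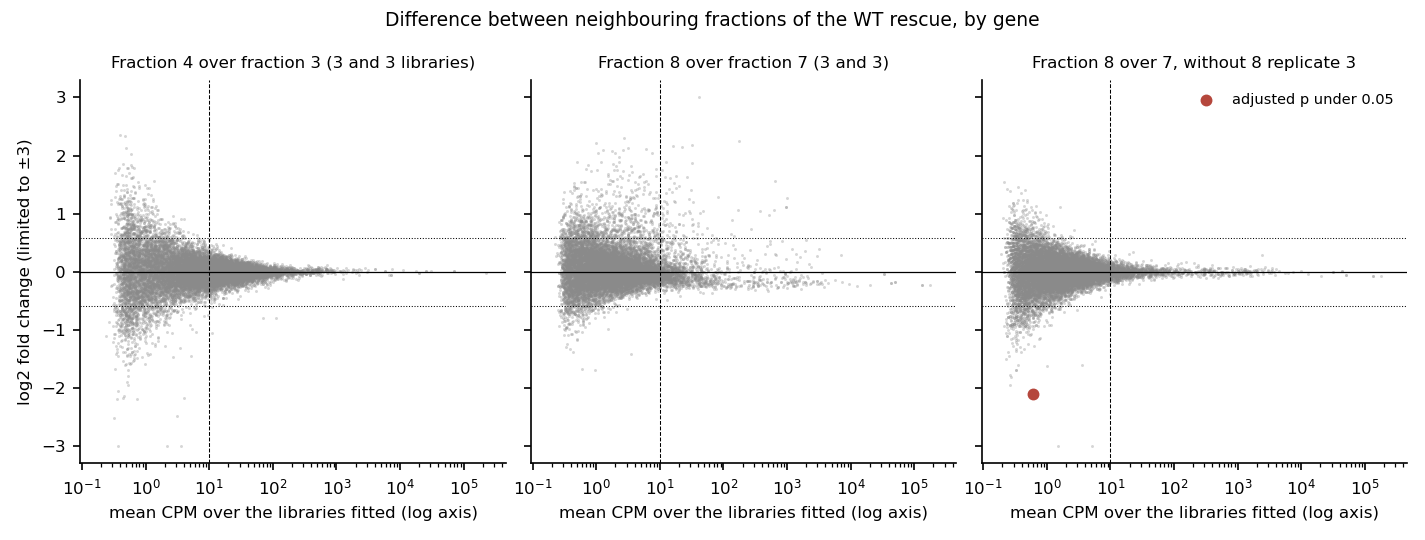
Each point is a gene, with its mean CPM on a log axis and its log2 fold change on the vertical axis (limited to ±3) for fraction 4 over 3 on the left, fraction 8 over 7 in the middle, and fraction 8 over 7 without replicate 3 of fraction 8 on the right. Dotted lines mark 1.5-fold, the dashed line marks 10 CPM, and the red point is the 1 gene called (adjusted p under 0.05). The points narrow towards 0 as the level grows in the outer panels, whereas the middle panel has a tail of genes above the upper line.

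The abundant small RNAs had narrow intervals around 0. RPPH1 had 5819, 5802 and 5710 CPM in fraction 4, and 5730, 5855 and 5574 CPM in fraction 3. The 2 sets overlapped, and the log2 fold change of 0.01 had a 95% interval of -0.03 to 0.06. SCARNA2, a Cajal body RNA, had 24620, 25720 and 25980 CPM in fraction 4, and 24820, 25360 and 25070 CPM in fraction 3, with an interval of -0.02 to 0.06. For RN7SL1, RN7SL2 and RN7SK, which code for 7SL and 7SK, the intervals ran from -0.07 to 0.02, from -0.02 to 0.05 and from -0.05 to 0.02. RMRP stood at 7309, 6851 and 6988 CPM in fraction 4, and at 7507, 7322 and 7098 CPM in fraction 3, an interval of -0.12 to 0.01. The rows RPPH1, RMRP and RN7SK each have a second row with identical counts in the table, so that a pair of them is 1 measurement. SCARNA9 came nearest to a call among the small RNAs. It stood at 1229, 1242 and 1162 CPM in fraction 4, and at 1298, 1370 and 1304 CPM in fraction 3, without overlap. Its log2 fold change was -0.13 (SE 0.03, edgeR adjusted p = 0.485), and it was not called.

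Messenger RNAs of the translation machinery differed little in size between the 2 fractions, and none was called. Of 86 cytosolic ribosomal protein mRNAs tested, 0 were called, and the log2 fold changes ran from -0.11 for RPL7L1 to 0.18 for RPS26. The median was 0.03 beside 0.00 over all genes. Of the 86, 71 lay above 0 under each scaling tried, beside 8559 of all 17045 genes, and 13 had an unadjusted p under 0.05, where 4.9% of all genes did. RPL7, a protein of the large ribosomal subunit, had 148.7, 145.9 and 148.6 CPM in fraction 4, and 128.6, 134.1 and 140.0 CPM in fraction 3, a log2 fold change of 0.14 (SE 0.04, edgeR adjusted p = 0.982). RPLP1, a protein of the ribosomal stalk, had 1335, 1331 and 1339 CPM in fraction 4, and 1312, 1304 and 1366 CPM in fraction 3, and its sets overlapped. Elongation factors and other mRNAs with a 5′ terminal oligopyrimidine tract gave a median of 0.01 over 19 genes, and mRNAs of very long transcripts one of -0.01 over 52.

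Mitochondrial ribosomal RNA was lower in fraction 4 in every library, and whether it was called depended on the fit. The 12S and 16S ribosomal RNAs, MT-RNR1 and MT-RNR2, are of the class that ribosomal RNA depletion removes. MT-RNR1 had 79.8, 90.3 and 70.7 CPM in fraction 4, and 122.3, 180.2 and 117.4 CPM in fraction 3. Every library of fraction 4 was below every library of fraction 3, and the log2 fold change was -0.81 (SE 0.22, edgeR adjusted p = 0.982). MT-RNR2 gave -0.80 (SE 0.25) with the same separation. Neither was called by the edgeR fit with fraction as its only term. Without replicate 2 of fraction 3, which was highest for both, edgeR called these 2 rows and no other, at -0.58 and -0.54. The 13 mitochondrially encoded mRNAs had a median of 0.04, with 0 called, and ran from -0.05 for MT-ND6 to 0.06 for MT-CYB.

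The RNA exosome and its partners were level between fractions 4 and 3. Of 13 genes listed for the exosome 0 were called, and the median log2 fold change was -0.03. The list also holds DIS3L2, a relative of DIS3 that is not an exosome subunit. EXOSC8, a core subunit, had 50.6, 51.6 and 55.2 CPM in fraction 4, and 53.0, 54.2 and 59.1 CPM in fraction 3. The sets overlapped, with an interval of -0.22 to 0.05. For EXOSC10, the nuclear exonuclease of the complex, the interval was -0.16 to 0.14, and DIS3 had one of -0.18 to 0.08. DIS3L, the cytoplasmic relative of DIS3, had 25.1, 27.9 and 23.5 CPM in fraction 4, and 33.7, 26.9 and 27.4 CPM in fraction 3, which overlapped, with an interval of -0.41 to 0.01. Among 26 other RNA decay enzymes, CNOT3, a subunit of the CCR4-NOT deadenylase, stood at 30.3, 31.0 and 29.4 CPM in fraction 4, and at 26.1, 24.5 and 26.4 CPM in fraction 3. Those sets did not overlap, but the gene was not called (log2 fold change 0.23, edgeR adjusted p = 0.982).

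Nuclear and nucleolar small RNA classes spread more widely, on fewer counts. Of 38 spliceosomal snRNA rows 0 were called, with a median of 0.12. Above 0 lay 26 of them, beside 8559 of all 17045 genes. Box C/D snoRNAs, which guide methylation of RNA, had a median of 0.07 over 63 rows, and box H/ACA snoRNAs, which guide pseudouridylation, one of -0.06 over 41. MALAT1, a nuclear long noncoding RNA, had 2195, 2217 and 2243 CPM in fraction 4, and 2238, 2383 and 2261 CPM in fraction 3, a log2 fold change of -0.05. Nuclear-encoded oxidative phosphorylation mRNAs had a median of 0.02 over 80 genes, proteasome mRNAs one of -0.04 over 35, and host genes of well known circular RNAs one of -0.03 over 34. None of these lists had a called member.

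The genes nearest to a call, or with the largest values, were looked up after their values were seen. BZW1 (chromosome 2, 200811589 to 200827338), a regulator of translation start, had the smallest p. It stood at 75.9, 81.6 and 72.9 CPM in fraction 4, and at 87.6, 98.5 and 92.6 CPM in fraction 3. The groups did not overlap, and the log2 fold change of -0.28 (SE 0.06) had an edgeR adjusted p of 0.485. CEP162, a protein of the centriole, had the largest value among genes with 10 CPM or more, -1.05 with an interval of -2.47 to 0.37. That rested on 1 library, since CEP162 had 8.33, 6.76 and 6.45 CPM in fraction 4, and 8.90, 26.1 and 9.48 CPM in fraction 3, and without replicate 2 of fraction 3 the value was -0.36.

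**Figure D3:**
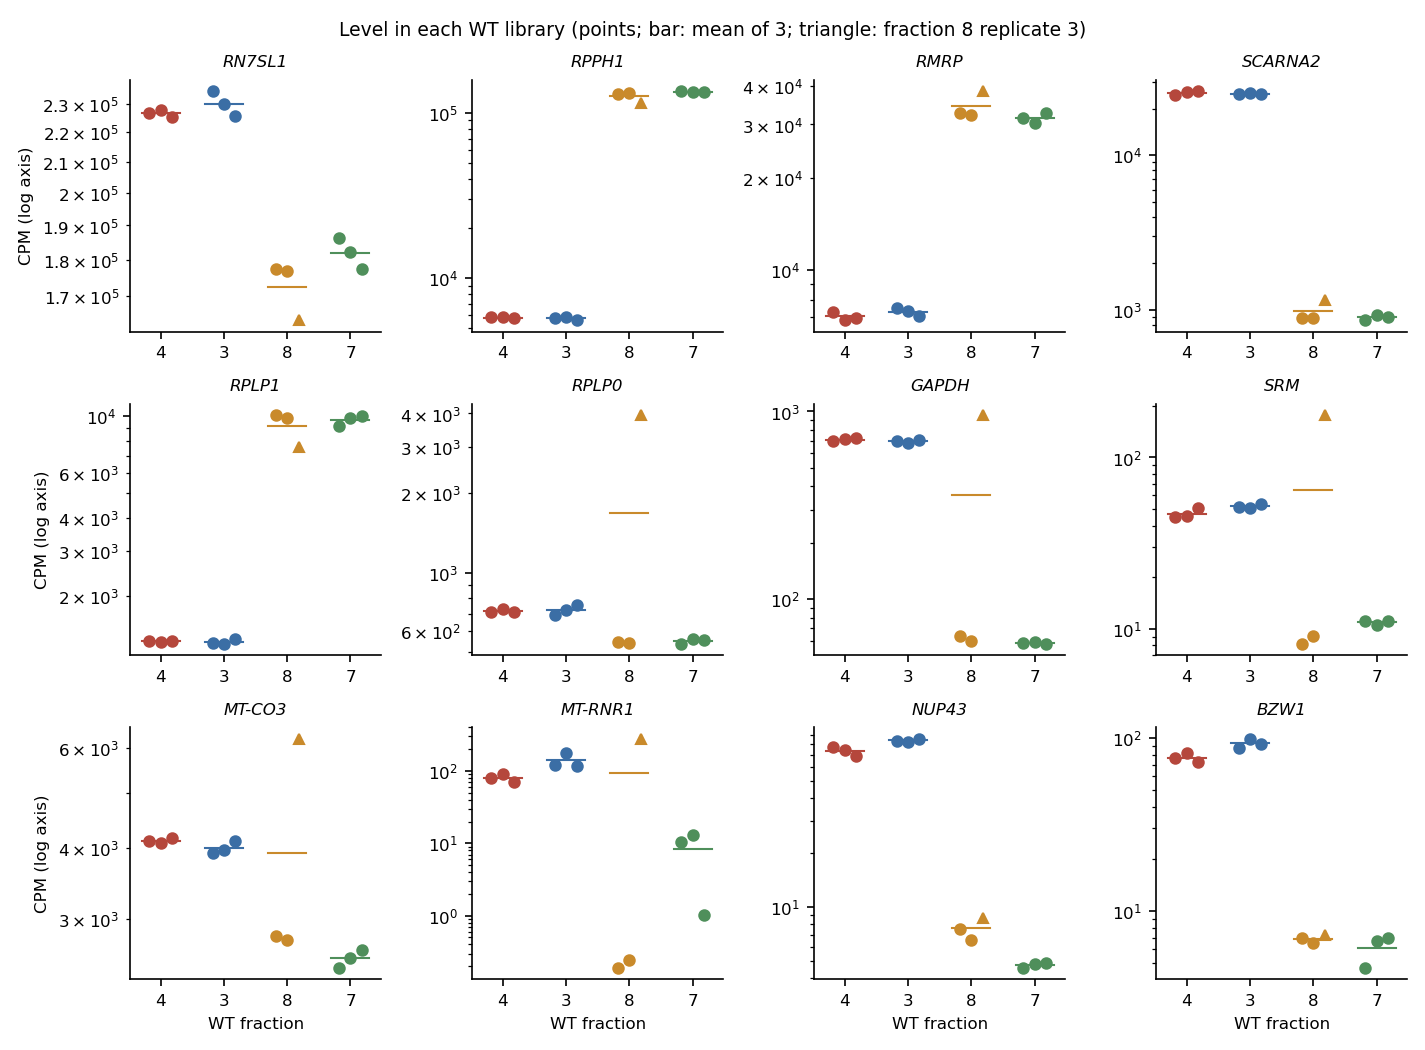
Level of 12 RNAs in each WT library, in CPM on a log axis that differs between panels, with fractions 4, 3, 8 and 7 from left to right, 3 points a fraction, a bar at their mean and a triangle for replicate 3 of fraction 8. Fractions 4 and 3 lie close together in each panel, with separate points for MT-RNR1, NUP43 and BZW1. So do fractions 8 and 7, except in the MT-RNR1 panel, in the NUP43 panel, where fraction 8 lies above fraction 7, and for the triangle. The triangle stands far above its replicates for RPLP0, GAPDH, SRM, MT-CO3 and MT-RNR1 and below them for RN7SL1, RPPH1 and RPLP1.

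Fractions 8 and 7 with all 6 libraries gave wide intervals. Of 14120 genes tested, edgeR called 0 (0.0%), with 431 genes (3.05%) at an unadjusted p under 0.05, 270 higher and 161 lower in fraction 8. DESeq2 and limma voom called 0, with 294 and 391 genes under 0.05. The libraries did not overlap for 1379 genes (9.77%). Of the 1473 genes with 10 CPM or more, 62.1% had an interval within 1.5-fold and 89.5% one within 2-fold. Among them 92 genes had a fold change over 1.5 and 45 over 2, none called. On library totals without TMM factors the median of all genes moved by over 0.1, to 0.19, beside 0.01 with TMM. Values in this comparison are therefore read relative to that shift, and the TMM factor of replicate 3 of fraction 8 was 1.26, against 0.90 to 0.98 in the other 5 libraries.

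Without replicate 3 of fraction 8 the 2 fractions held nearly the same RNA in the fit with fraction as its only term. Of 14274 genes tested, edgeR called 1, lower in fraction 8 (0.00701%), and 721 genes (5.05%) had an unadjusted p under 0.05. DESeq2 called 0, with 163 genes at an unadjusted p under 0.05, and limma voom called 3, RPL39P3, RPS19 and MT-CO3, with 714 under 0.05. Of the 1371 genes with 10 CPM or more, 1366 (99.6%) had an interval within 1.5-fold, and none of their fold changes passed 1.5. Their median SE was 0.06, against 0.16 with replicate 3. The libraries did not overlap for 2891 genes (20.3%). In an exact permutation test a full separation has p = 0.2 with 2 libraries against 3, and p = 0.1 with 3 against 3. This share is therefore not compared with that of the fit with replicate 3.

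The called row, ENSG00000276997, has no symbol in the tables used and few counts. It had 4.83 and 7.5 counts in replicates 1 and 2 of fraction 8 and 17.0 in replicate 3, against 28.5, 25.5 and 27.0 counts in fraction 7. The log2 fold change was -2.11 without replicate 3 (SE 0.45, edgeR adjusted p = 0.0371) and -1.68 with it (adjusted p = 0.917). In fractions 4 and 3, where it had 24.0 to 34.5 counts in all 6 libraries, the value was 0.16. The call was lost when either library of fraction 8, or replicate 1 or 2 of fraction 7, was left out, with values from -2.45 to -1.84.

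None of the small RNAs that make up much of fractions 8 and 7 was called, though some levels did not overlap. RPPH1 (chromosome 14, 20343071 to 20343411) had 130800, 131700 and 114800 CPM in fraction 8, and 134900, 133800 and 133600 CPM in fraction 7. All libraries of fraction 8 were below those of fraction 7, replicate 3 furthest, and the log2 fold change was -0.07 without replicate 3 (interval -0.23 to 0.09) and -0.24 with it (interval -0.81 to 0.33). RN7SL1 had 177300, 176800 and 163700 CPM in fraction 8, and 186300, 182200 and 177500 CPM in fraction 7. Here too all libraries of fraction 8 were below those of fraction 7, by CPM though not after TMM scaling. The interval was -0.29 to 0.14 without replicate 3 and -0.79 to 0.34 with it. For RMRP the value without replicate 3 was 0.00 (interval -0.19 to 0.20), and for RN7SK 0.01 (interval -0.14 to 0.16). SCARNA9 had 46.5, 47.4 and 70.1 CPM in fraction 8, and 35.8, 39.7 and 44.3 CPM in fraction 7. Here its libraries did not overlap in the direction opposite to fractions 4 and 3, at 0.20 without replicate 3 (SE 0.05, edgeR adjusted p = 0.303).

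Ribosomal protein mRNAs, a large class in fractions 8 and 7, stayed within narrow intervals once replicate 3 was left out. Of 86 tested edgeR called 0, and 85 had an interval within 1.5-fold. The median was -0.01, and 39 lay above 0, beside 7073 of all 14274 genes. On library totals 66 lay above 0, where the median over all genes moved up as well. RPLP1 had 10060, 9774 and 7603 CPM in fraction 8, and 9114, 9838 and 9986 CPM in fraction 7. Its interval without replicate 3 was -0.03 to 0.04. RPLP0, the stalk base protein, had 548.8, 544.3 and 3942 CPM in fraction 8, and 537.9, 560.3 and 558.9 CPM in fraction 7. The value was -0.05 without replicate 3 (interval -0.10 to 0.00) and 1.27 with it (interval -0.69 to 3.24), so that 1 library set the second. RPLP0 has near-identical pseudogenes, whose rows may share its reads. Replication-dependent histone mRNAs, which end in a stem-loop in place of a poly(A) tail, gave a median of -0.03 over 54 genes, with 0 called, and 0.00 on library totals.

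The mitochondrially encoded mRNAs leaned one way in fractions 8 and 7 without being called. All 13 were above 0 without replicate 3, beside 7073 of all 14274 genes. They ran from 0.04 for MT-CO1 to 0.34 for MT-ND4L, and the median was 0.12 beside 0.00 over all genes. On library totals all 13 remained above 0, at a median of 0.15 beside 0.03. MT-ND4, a subunit of respiratory complex I, had 427.2, 424.1 and 980.7 CPM in fraction 8, and 364.1, 384.7 and 399.0 CPM in fraction 7. The groups did not overlap, and the log2 fold change without replicate 3 was 0.12 (SE 0.03, edgeR adjusted p = 0.127). MT-ATP6, a subunit of the ATP synthase, had 214.6, 229.8 and 723.7 CPM in fraction 8, and 187.6, 192.5 and 208.0 CPM in fraction 7, at 0.15 (SE 0.03, edgeR adjusted p = 0.127). MT-CO3, a subunit of cytochrome oxidase, had 2800, 2754 and 6223 CPM in fraction 8, and 2465, 2567 and 2644 CPM in fraction 7. Its value of 0.08 (SE 0.02) was not called by edgeR (adjusted p = 0.303) but was one of the 3 called by limma voom. Of the 13, 9 had an unadjusted p under 0.05, beside 5.05% of all genes. With replicate 3 all 13 were also above 0, beside 7325 of all 14120 genes, at a median of 0.45, and 0 were called.

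Mitochondrial ribosomal RNA varied widely between libraries of fractions 8 and 7. MT-RNR1 had 0.191, 0.243 and 278.0 CPM in fraction 8, and 10.6, 13.2 and 1.04 CPM in fraction 7. The log2 fold change was -5.27 without replicate 3 of fraction 8 and 3.06 with it, neither called, and both intervals spanned 0. With all 6 libraries limma voom gave -0.86, so that the sign depended on the tool as well. MT-RNR2 followed with 0.0319, 0.213 and 30.5 CPM in fraction 8, and 3.67, 3.39 and 0.132 CPM in fraction 7. Replicate 3 of fraction 7 was the lowest of its fraction for both rows. With that library and replicate 3 of fraction 8 both left out, both rows were called, at -5.79 and -4.83. The libraries left out held the values that went most against a lower level in fraction 8. These calls thus follow from the choice of libraries and are not read as a difference between the fractions.

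Exosome genes gave no call in fractions 8 and 7. Of the same list of 13 genes, DIS3L2 included, edgeR called 0 with or without replicate 3. EXOSC8 had 24.8, 21.5 and 32.1 CPM in fraction 8, and 20.2, 22.8 and 22.3 CPM in fraction 7, with an interval of -0.07 to 0.18 without replicate 3. DIS3, whose libraries in fraction 8 all had a higher CPM than those in fraction 7, gave 0.22 without replicate 3 (interval -0.02 to 0.45) and 0.10 with it (interval -0.22 to 0.42). Other genes near a call were RGS10, a regulator of G protein signalling, at 22.8, 22.3 and 27.6 CPM in fraction 8, and 16.7, 17.8 and 19.2 CPM in fraction 7, and SRM, the spermidine synthase, at 8.15, 9.03 and 176.7 CPM in fraction 8, and 11.1, 10.5 and 11.2 CPM in fraction 7. Without replicate 3 they gave 0.30 (edgeR adjusted p = 0.109) and -0.38 (edgeR adjusted p = 0.127). Both were picked after their values were seen.

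Of the lists with tested members, 35 in fraction 4 over 3 and 33 in fraction 8 over 7, 0 held a member called by edgeR in either pair of fractions. Limma voom called RPS19, of the ribosomal protein list, and MT-CO3, of the mitochondrially encoded mRNAs, in fraction 8 over 7 without replicate 3. Medians of lists with 5 or more tested members ran from -0.06 for box H/ACA snoRNAs to 0.12 for spliceosomal snRNA genes in fraction 4 over 3. In fraction 8 over 7 they ran from -0.24 for histone mRNAs to 0.65 for liver-type mRNAs with replicate 3, and from -0.07 for the class of 7SL and RNase P RNAs to 0.12 for the 293T check genes without it, which rests on 5 genes. Gene span, the length from annotated start to end, had a Spearman correlation with the log2 fold change of -0.04 over 15040 genes for fraction 4 over 3, and of 0.01 over 12798 genes for fraction 8 over 7 without replicate 3. With replicate 3 it was -0.11 over 12687 genes. These are across genes, which share libraries and are not independent replicates.

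**Figure D4:**
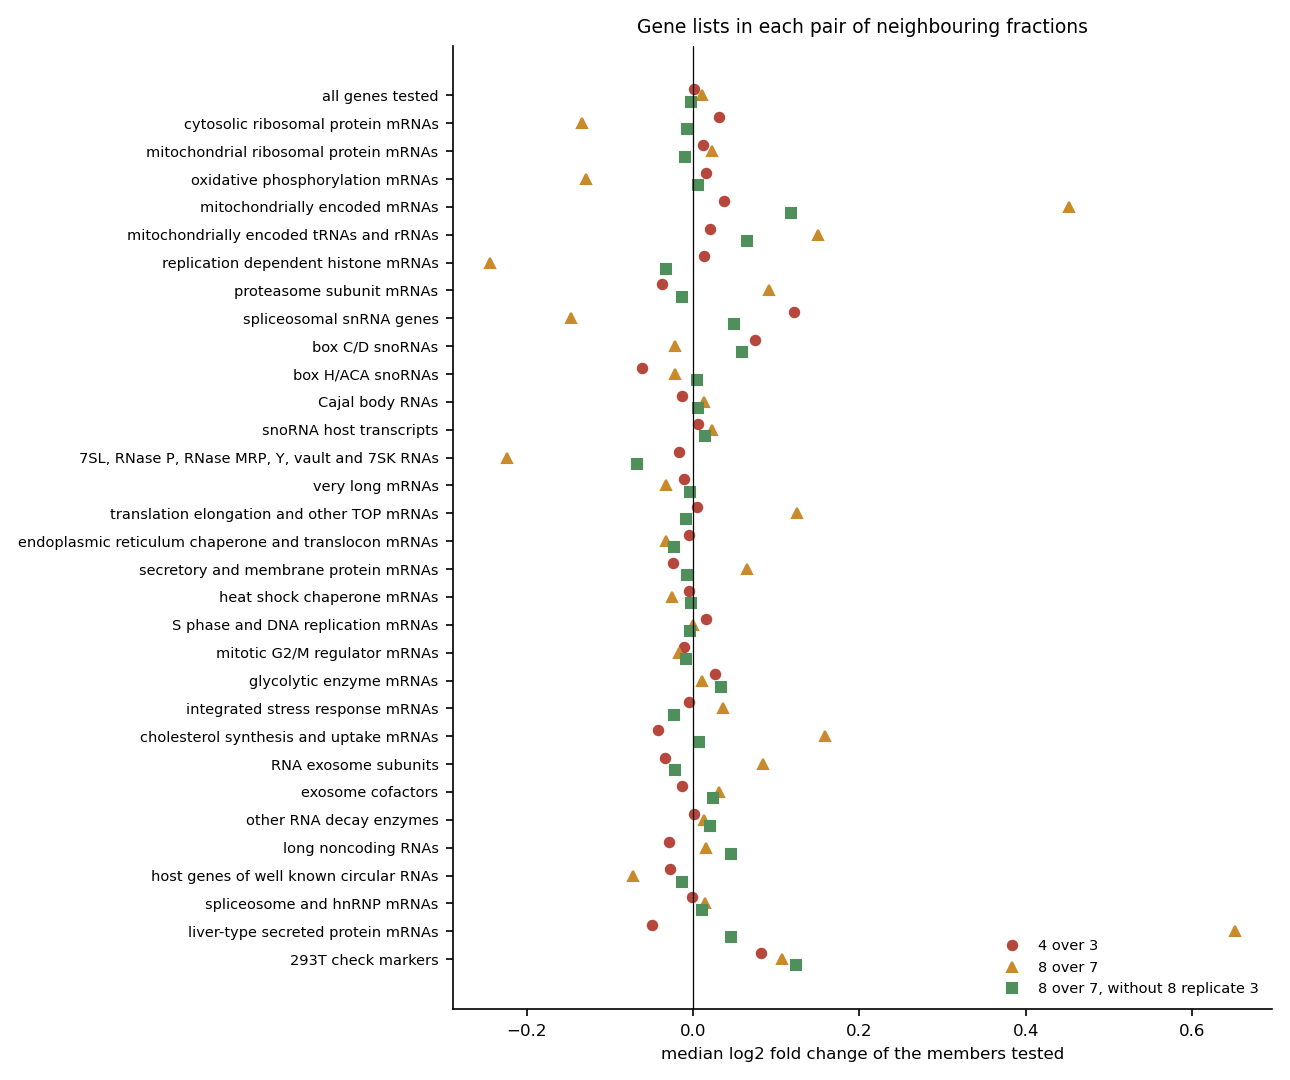
The horizontal axis is the median log2 fold change of each list's tested members, for fraction 4 over 3 (red circles), fraction 8 over 7 (orange triangles) and fraction 8 over 7 without replicate 3 of fraction 8 (green squares), with all genes tested in the top line. Red and green marks stay between -0.07 and 0.12, whereas the triangles reach -0.24 for histone mRNAs, 0.45 for mitochondrially encoded mRNAs and 0.65 for liver-type mRNAs.

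The difference between the contrasts (8 over 7 minus 4 over 3) was tested in 1 fit of the WT libraries. With all 12, edgeR called 0 of 18290 genes (0.0%), with 837 at an unadjusted p under 0.05. Without replicate 3 of fraction 8 it called 1 of 18895 (0.00529%), with 922 under 0.05. That gene was NUP43 (chromosome 6, 149724315 to 149749358), a subunit of the Y complex of the nuclear pore. NUP43 had 77.1, 74.1 and 68.8 CPM in fraction 4, and 83.7, 82.5 and 85.5 CPM in fraction 3. It had 7.57, 6.55 and 8.66 CPM in fraction 8, and 4.59, 4.83 and 4.89 CPM in fraction 7. Libraries of fraction 4 were all below those of fraction 3, and libraries of fraction 8 all above those of fraction 7. The log2 fold changes were -0.20 (SE 0.05) for fraction 4 over 3 and 0.52 (SE 0.11) for fraction 8 over 7 without replicate 3, neither called by edgeR (adjusted p = 0.982 and 0.109). Their difference was 0.72 (SE 0.12, edgeR adjusted p = 0.0172) without replicate 3 and 0.68 (SE 0.13, adjusted p = 0.904) with it. Of the 11 fits that left out a further library, 5 called 0 genes, those without replicate 3 of fraction 4, replicate 3 of fraction 3, replicate 1 of fraction 8, and replicate 1 or 2 of fraction 7.

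Shares of counts were also compared by class. An exact two-sided permutation test of 3 libraries against 3 cannot give a p below 0.1, and over 35 classes in each pair the smallest adjusted p was 0.875 for fractions 4 and 3 and 0.583 for fractions 8 and 7. Libraries did not overlap for 4 and 6 of the 35 classes, beside 10.4% and 9.77% of all genes tested (after TMM scaling). The 6 became fewer without the 10 most abundant rows, as given in the last section. These counts are thus not read as a difference between the fractions. The 7SL, RNase P, RNase MRP, Y, vault and 7SK RNAs took 36.1%, 36.3% and 36.1% of the counts in fraction 4, and 37.1%, 36.4% and 35.8% in fraction 3. They took 45.4%, 45.5% and 41.9% in fraction 8, and 46.9%, 45.8% and 45.6% in fraction 7, where replicate 3 of fraction 8 was lowest. The second rows with counts identical to RPPH1 and RMRP are in the library totals but not in this class. Its shares therefore understate these RNAs in every fraction. Ribosomal protein mRNAs took 4.51% ± 0.03 in fraction 4 and 4.41% ± 0.11 in fraction 3 (SD, n = 3 each). They took 12.8%, 12.7% and 13.9% in fraction 8, and 11.8%, 12.7% and 12.6% in fraction 7, so that replicate 3 was the highest and the other libraries overlapped. Mitochondrially encoded mRNAs took 0.823%, 0.815% and 1.85% in fraction 8, and 0.719%, 0.753% and 0.789% in fraction 7. Those sets did not overlap, and replicate 3 stood more than 2-fold above its replicates.

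Replicate 3 of fraction 8 differed from replicates 1 and 2 in an ordered way, given here without a test because it is 1 library. Of 1359 genes with 10 CPM or more in fraction 7, 172 were 2-fold or more higher than the mean of replicates 1 and 2, and 3 were 2-fold or more lower, C4orf48, TFDP1 and U2, named after their values were seen. After TMM scaling the counts were 88 and 12. Of all 1359 genes, 850 were higher to any degree and 508 lower, or 452 and 907 after TMM scaling. The other 5 libraries of fractions 8 and 7 each held at most 2 genes 2-fold from the mean of the rest. All 12 mitochondrially encoded mRNAs of this set were higher, 9 of them by 2-fold or more, at a median log2 ratio of 1.17, and 11 of 12 after TMM scaling. All 7 proteasome mRNAs of this set were higher, under both scalings, at a median of 1.11. Of the 34 proteasome mRNAs tested in fraction 8 over 7 with replicate 3, 25 lay above 0, at a median log2 fold change of 0.09. Of 49 histone mRNAs 45 were lower, at a median of -0.34, and 47 after TMM scaling. All 12 spliceosomal snRNA rows were lower under both scalings.

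Ribosomal protein mRNAs in that library split. Of 85, 35 were higher and 50 lower than in replicates 1 and 2, beside 850 and 508 of all 1359 genes. After TMM scaling 22 were higher and 63 lower, beside 452 and 907 of all genes, so that most of either were lower. The log2 ratios ran from -0.65 for RPL22L1 to 2.85 for RPLP0. RPS2, a protein of the small subunit, stood at 13720 CPM in replicate 3, against 6076 and 6124 CPM in replicates 1 and 2, and RPSA, the ribosomal laminin receptor protein, at 3437 CPM, against 576.9 and 578.2 CPM. RPL39, by contrast, stood at 1573 CPM in replicate 3, against 2504 and 2384 CPM. RACK1, a scaffold on the small subunit, stood at 2825 CPM in replicate 3, against 309.3 and 305.9 CPM. GAPDH, a glycolytic enzyme, stood at 955.8 CPM in replicate 3, against 63.6 and 60.3 CPM.

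The levels in that library were also set beside fractions 4 and 3. Of the 172 genes raised 2-fold or more, 120 (69.8%) were above their mean level in fractions 4 and 3. The same share over all 1359 genes is not given here, so this one cannot be read as a trait of the raised genes. SRM had 176.7 CPM in replicate 3 of fraction 8 and 45.1 to 53.5 CPM in fractions 4 and 3, and RPLP0 had 3942 CPM beside 694.7 to 753.0 CPM. Of 136 genes with a 10-fold or higher level in fractions 4 and 3 than in fraction 7, 17 (12.5%) were raised 2-fold or more in replicate 3, and of the 1223 other genes 155 (12.7%) were. The median log2 ratio to replicates 1 and 2 was 0.33 for the 136 genes and 0.12 for the others. Across the 1359 genes the ratio had a Spearman correlation of 0.37 with the log2 ratio of the level in fractions 4 and 3 to that in fraction 7, as a description over genes of the same libraries. AHNAK, which codes for a very large scaffold protein, had 360.7, 369.1 and 351.2 CPM in fraction 4, and 7.50 CPM in replicate 3 of fraction 8 beside 4.94 and 4.97 CPM in replicates 1 and 2. The summed share of liver-type mRNAs was 0.0131% in replicate 3, against 0.00398% and 0.00361% in replicates 1 and 2. It was 0.0654% to 0.0696% in fractions 4 and 3. The part of any of these values in the difference of that library was not tested.

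**Figure D5:**
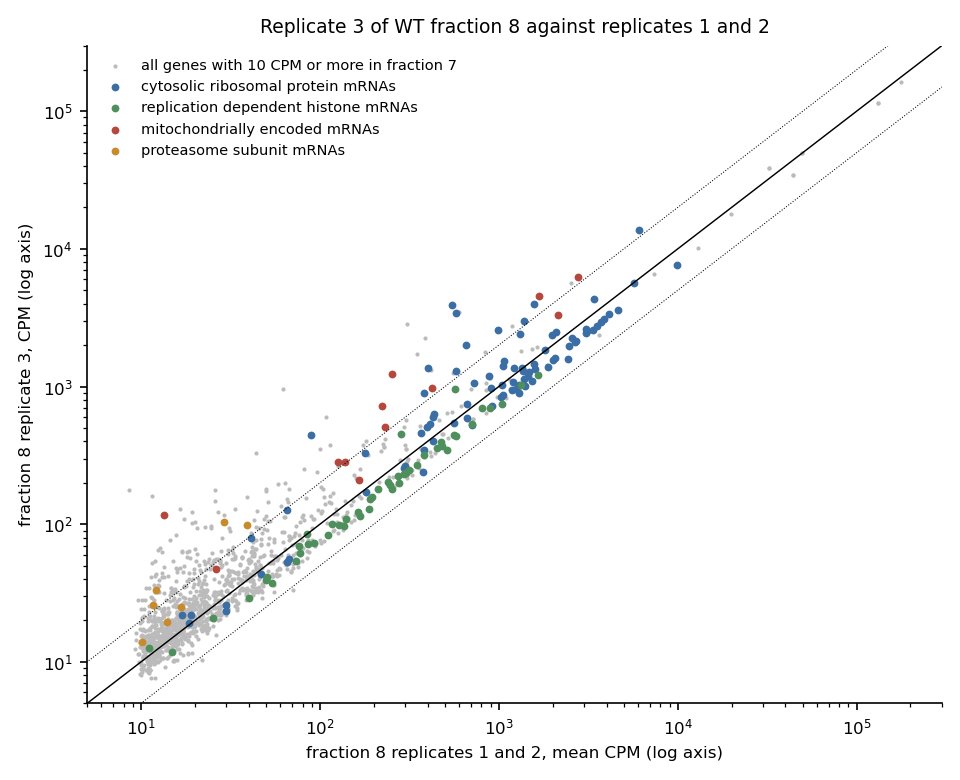
Each point is 1 of 1359 genes, with the mean CPM of replicates 1 and 2 of fraction 8 on the horizontal log axis and the CPM of replicate 3 on the vertical log axis. The solid line marks equal levels and the dotted lines 2-fold. Mitochondrially encoded mRNAs (red) and proteasome mRNAs (orange) lie above the line, 45 of 49 histone mRNAs (green) below it, and ribosomal protein mRNAs (blue) on both sides.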

How the data were processed

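The deposited table held expected counts per gene, not normalized by the authors, in 61853 gene rows. Of the nonzero values in the WT libraries 72.0% were whole within 0.005. Because the rest were fractional, counts were rounded ahead of the fits, although the tests had been planned for whole counts. Per the submitters' processing notes, featureCounts 1.5.1, SAMtools, HISAT2 2.1.0, Bowtie2 2.3.5 and hg38 were used, with no roles given, and how reads that match several genes were shared out is not given in the sources used here. Symbols came from gene tables that matched 99.92% of rows, and positions from RefSeq on GRCh38.p14. Column names matched the sample titles.

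Each pair of fractions was fitted alone with edgeR 4.0.16 in R 4.3.3 (TMM, filterByExpr by group, robust quasi-likelihood fit, Benjamini-Hochberg adjustment over the genes tested), and the difference of the contrasts in the 12 or 11 WT libraries. SEs and 95% intervals used the quasi-likelihood variance. DESeq2 1.42.0 and limma 3.58.1 (voom) were alternatives, with other scalings, no filter, unrounded values, the replicate number as a block and each library left out. The scripts were tested on simulated data. Library totals of 21.151 to 32.989 M counts are reads, and no molecular identifiers are mentioned, so depth gives counting precision only.

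The libraries compared, the 35 gene lists and the tests were chosen with earlier results of these data known. The naming rule took genes called with 10 CPM or more and no overlap, up to 4 members of each list with the smallest p, and the exosome and small RNA genes. Through a call it named NUP43 alone. Other genes are said to be picked after their values were seen, as were RPLP0, RPLP1, MT-ATP6, MT-CO3, RPS2, RPL39, RACK1, SRM and AHNAK. The 46 Y copies of pseudoautosomal rows were left out of lists. The 12 D146N libraries were not used, and 0 columns lacked a sample.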

Additional observations from a re-analysis of the deposited data

Results flagged for a closer look

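The contrasts 8 over 7 and 4 over 3 differed for 1 gene, NUP43, by a test of the difference itself. The difference of the log2 fold changes was 0.72 without replicate 3 of fraction 8 (edgeR adjusted p = 0.0172 over 18895 genes), with fraction 4 below fraction 3 in all libraries and fraction 8 above fraction 7 in all libraries. With replicate 3 it was 0.68 (edgeR adjusted p = 0.904).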

How the results depend on the processing

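With edgeR, fraction 4 over 3 and fraction 8 over 7 with all 6 libraries kept 0 calls under the other scalings and unrounded values, as they did with DESeq2, limma voom and the fit of all WT libraries. With no filter on low counts they had 4 and 25 calls, and fraction 8 over 7 without replicate 3 of fraction 8 had 7, beside 1 with the filter. In that comparison DESeq2 called 0, limma voom 3 and the fit of 11 libraries 0. Leaving out 1 library in turn gave 0 to 2 calls for fraction 4 over 3 and 0 to 1 for fraction 8 over 7. Once replicate 3 of fraction 8 was out, a further library left out gave 0 to 15 calls, with 5 without replicate 1 and 1 without replicate 2 of fraction 8, and 4 without replicate 1, 0 without replicate 2 and 15 without replicate 3 of fraction 7. A lone library of fraction 8 is then assumed to vary like fraction 7. The difference of contrasts had 0 to 1 calls with a library left out, and 0 to 2 once replicate 3 of fraction 8 was out. Classes whose libraries did not overlap numbered 5 to 14 for fractions 4 and 3 and 6 to 16 for fractions 8 and 7 with a library left out, and 3 for fractions 8 and 7 without the 10 most abundant rows. A full separation is easier to reach with fewer libraries, so the counts with a library left out are not compared with those of 3 libraries against 3. Lists with a called member in fraction 4 over 3 numbered 1 with no filter, 1 with the replicate block and 0 to 1 with a library left out, and 0 in each such fit of fraction 8 over 7. The span correlation of fraction 4 over 3 was -0.0056 with no filter and -0.0373 to -0.0205 with a library left out. For fraction 8 over 7 it was -0.124 to 0.0149 with a library left out, the last without replicate 3 of fraction 8. The cause of these moves was not tested. Replicate numbers were not taken as pairs. Deviations of same-numbered libraries correlated at 0.01, -0.015 and -0.017 for fractions 4 and 3, and at -0.207, -0.018 and -0.222 for the pair 8 and 7. Not every library correlated best with its own number. Replicates 1 and 2 of fraction 8 correlated with replicate 1 of fraction 7 at -0.207 and -0.203, and replicate 3 at 0.209. With replicate 3 of fraction 8 in it, the check cannot decide whether fractions 8 and 7 are paired. With the replicate block fraction 4 over 3 had 2 calls, MT-RNR1 and MT-RNR2, fraction 8 over 7 had 0, or 27 without replicate 3 of fraction 8 (17 higher and 10 lower), and the difference of contrasts 0 and 1. Depth limits low rows most, since 76.6% of all genes tested in fraction 4 over 3 had an interval within 2-fold, against 99.7% of those with 10 CPM or more.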
